A study of Arabidopsis thaliana with 9 samples.

Results

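KUP12 (AT1G60160) and OCT4 (AT3G20660) are genes for cation transporters of Arabidopsis thaliana, and their transcript signals were followed in roots of the wild type and of lines with a mutated HCR1 gene. They are 2 genes of the 16512 that could be examined, each on 1 row of a table in which 16746 rows were paired with exactly 1 gene. The pair was chosen by measured values of these arrays. OCT4 had stood among the genes furthest above the wild type over both mutant lines, and KUP12 was the measured gene of a potassium transport list and had stood below the wild type in hcr1-2. Their differences between genotypes are therefore given as a description, with no test. All 3 genotypes were in the Col-0 ecotype: the wild type Col-0, and hcr1-1 and hcr1-2, which the labels call mutants of Hydraulic conductivity of Root 1 (HCR1) without placing the lesions. All plants, wild type included, grew in hydroponics with ample potassium at a pO2 of 11.1 ± 1.1%, so every comparison is one of genotype within oxygen shortage. Roots were taken at 21 days, each sample pooled 5 plants, and each genotype had 3 samples called biological replicates, with 1 array each, 9 arrays in all. In pooled whole roots, fewer cells of a type and less RNA per cell cannot be told apart.

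Potassium is the main inorganic cation of plant cells, and its uptake and storage set turgor, membrane voltage and root water relations. KUP12 belongs to the KUP/HAK/KT family, membrane proteins that carry potassium ions and whose best known root member, HAK5, takes up potassium when it is scarce outside. OCT4 belongs to the organic cation/carnitine transporters, carriers of the major facilitator superfamily related to the animal carriers of carnitine and other charged organic molecules. HCR1 (AT3G24715) encodes a kinase of the Raf-like group that controls how easily water enters the root, and potassium and oxygen supply are the conditions under which it has been studied. The gene table used for names lists AT1G60160 by its locus only, and KUP12 is its usual name.

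The targeted gene was read first. Here and below, values are log2 signals and stand in replicate order. HCR1 signal in the wild type was 4.60, 4.85 and 4.88. The hcr1-1 line had 3.46, 3.25 and 2.36, and the hcr1-2 line 4.24, 4.38 and 4.30. Both lines were wholly below the wild type, hcr1-1 at 29.6% and hcr1-2 at 71.9% of its signal. Arrays wholly below Col-0 were found in 4.02% of all tested rows for hcr1-1 and in 4.34% for hcr1-2. The log2 difference in HCR1 was -1.76 (SE 0.23) in hcr1-1 and -0.48 (SE 0.23) in hcr1-2. By limma the adjusted p values were 0.13 and 0.903, so neither passed over all rows. Of the root markers 3 of 14 were on a tested row. PYK10, an abundant root beta-glucosidase, had a mean of 10.7 over the arrays, EXPA7 one of 4.73 and EXPA18 one of 3.84. The shoot markers RCA and LHCB4.1 had means of 4.37 and 4.69. The array of hcr1-2 replicate 1 stood apart by its limma weight, 0.47 while the remaining 8 had 0.79 to 1.47. This weight reflects how far an array scatters from its genotype, and cannot tell array quality from a pool that differed. The hcr1-2 values are therefore also given without it where that moved them by over 1.5 times or changed an overlap of arrays.

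Mean KUP12 signal was highest in Col-0, lower in hcr1-1 and lowest in hcr1-2, with hcr1-2 at 71.5% of the wild type. Its values were 4.82, 4.75 and 4.86 in the 3 Col-0 arrays, a mean of 4.81 ± 0.06 (SD, n = 3). In hcr1-1 they were 4.49, 4.87 and 4.56, a mean of 4.64 ± 0.21 (SD, n = 3). In hcr1-2 they were 4.43, 4.31 and 4.24, a mean of 4.33 ± 0.10 (SD, n = 3). The wild type arrays were close together, and the 3 hcr1-2 arrays were the lowest of all 9. The hcr1-1 arrays were divided: replicate 2 was the highest KUP12 value in the series, level with the wild type, and replicates 1 and 3 lay between the other genotypes.

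The log2 difference in KUP12 was -0.48 (SE 0.12) for hcr1-2 against Col-0, as all 3 of its arrays showed. The nearest arrays of these genotypes were 0.32 apart, more than the SD within either. Arrays of hcr1-2 lying wholly below those of Col-0 were found in 4.34% of all tested rows, and 1.42% of rows were as far from Col-0 in either direction. In hcr1-1 the log2 difference was -0.17 (SE 0.12), the arrays overlapped those of Col-0, and 22.7% of rows were at least as far from it. Without hcr1-1 replicate 2 that difference was -0.29, and without hcr1-1 replicate 1 it was -0.09, so single arrays moved it by more than 1.5 times. Col-0 and hcr1-1, neighbours in the order of levels, did not differ beyond their spread.

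Between the mutant lines KUP12 was lower in hcr1-2 than in hcr1-1 by a log2 difference of -0.31 (SE 0.12). The arrays of the lines did not overlap, which 4.54% of rows showed in that direction, but the gap between the nearest arrays was 0.06, smaller than the SD of 0.21 in hcr1-1. Without hcr1-1 replicate 2 the difference was -0.20. Mean KUP12 signal was lowest in hcr1-2 and mean HCR1 signal in hcr1-1, and a relation between these genes was not tested. Without hcr1-2 replicate 1 KUP12 stood at -0.54 against Col-0 and at -0.36 against hcr1-1, with no overlap in either case. With that array left out, 10.8% of all rows had hcr1-2 wholly below Col-0. The share against hcr1-1 was not computed.

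**Figure D1:**
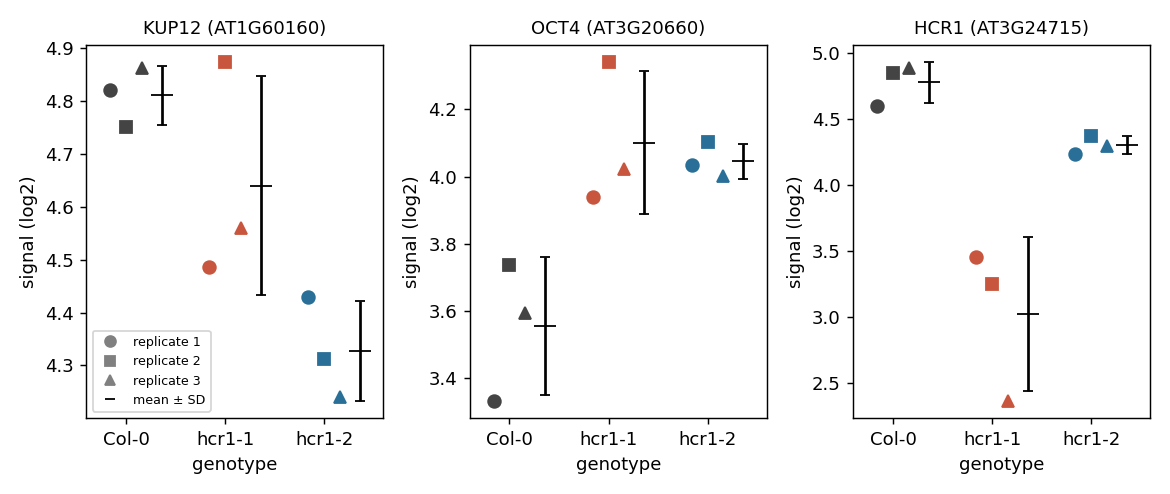
Signal of KUP12, OCT4 and HCR1 on each of the 9 arrays (log2, y axis, with a separate range in each panel that does not start at 0) by genotype, with marker shape for the replicate number and black bars for the mean ± SD of 3 arrays. KUP12 is lowest in the hcr1-2 arrays (4.24 to 4.43), OCT4 is lowest in the Col-0 arrays (3.33 to 3.74), and HCR1 is lowest in the hcr1-1 arrays (2.36 to 3.46).

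OCT4 went the other way and did so in both mutant lines. Its signal was 3.33, 3.74 and 3.6 in Col-0, a mean of 3.55 ± 0.21 (SD, n = 3). In hcr1-1 it was 3.94, 4.34 and 4.02, a mean of 4.1 ± 0.21 (SD, n = 3). In hcr1-2 it was 4.03, 4.1 and 4.0, a mean of 4.05 ± 0.05 (SD, n = 3). All 6 mutant arrays lay above all 3 Col-0 arrays, and the hcr1-2 arrays were the most alike. Col-0 replicate 1 was the lowest array of the series and hcr1-1 replicate 2 the highest.

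The log2 difference in OCT4 was 0.55 (SE 0.14) for hcr1-1 and 0.49 (SE 0.14) for hcr1-2, or 146% and 141% of the wild type signal. The nearest arrays were 0.20 apart in hcr1-1 against Col-0, about the SD within those groups, and 0.26 apart in hcr1-2 against Col-0. Mutant arrays wholly above the Col-0 arrays were found in 5.18% of rows for hcr1-1, in 6.1% for hcr1-2 and in 1.11% for all 6 mutant arrays together. Of all rows, 0.42% were at least as far from Col-0 in hcr1-1, and 1.31% in hcr1-2. The lines shared the Col-0 arrays as their reference, so these values are not separate observations of the wild type. Without Col-0 replicate 1, the lowest array, the differences were 0.44 in hcr1-1 and 0.38 in hcr1-2.

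OCT4 did not differ between the mutant lines beyond their spread, with a log2 difference of -0.06 (SE 0.14) for hcr1-2 against hcr1-1 and overlapping arrays. Its sign turned to 0.07 without hcr1-1 replicate 2. The order of levels was thus Col-0 lowest, with hcr1-2 and hcr1-1 above it and not separable. Without hcr1-2 replicate 1 OCT4 in that line stood 0.50 higher than the wild type. Averaged over the lines, the log2 difference was 0.52 (SE 0.12) for OCT4 and -0.33 (SE 0.11) for KUP12, where the KUP12 arrays of the mutants overlapped those of Col-0.

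Over the whole table of 16746 rows, the limma fit called 0 rows (0%) at an adjusted p of 0.05 in each comparison. This count describes the table and is no test of KUP12 or OCT4, which were picked from it. At an unadjusted p under 0.05 there were 542 rows (3.24%) for hcr1-1 and 904 (5.4%) for hcr1-2 set against the wild type, 624 for the average of the lines and 893 between the lines. With trended and robust variances limma called 1 row, HCR1 itself, in hcr1-1. The spread between arrays of a genotype was 0.14 for KUP12, lower than in most rows, and 0.17 for OCT4, near the median of 0.18 over all rows. On brightness, 65.5% of rows had a lower mean than KUP12 and 55.5% a lower mean than OCT4.

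Among their own families few genes could be compared. Of 13 KUP/HAK/KT genes KUP12 was the only one on a row with 1 gene, so it cannot be said here whether its relatives, HAK5 among them, moved with it. Of 6 OCT genes 3 were measured. OCT1 (AT1G73220), a carnitine carrier of the plasma membrane, had wild type values of 1.28, 1.27 and 1.65. It had 1.63, 1.95 and 1.67 in hcr1-1 and 1.62, 1.81 and 1.3 in hcr1-2, so each line overlapped the wild type. OCT5 (AT1G79410) had wild type values of 2.14, 2.14 and 2.4. It had 2.2, 2.12 and 2.5 in hcr1-1 and 2.47, 2.72 and 2.66 in hcr1-2. The hcr1-2 arrays of OCT5 lay above all Col-0 arrays, while the hcr1-1 arrays overlapped them.

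The log2 difference in OCT5 was 0.39 (SE 0.14) in hcr1-2 and 0.05 (SE 0.14) in hcr1-1. By limma the former had an adjusted p of 0.903 and the latter one of 1.00. For OCT1 the hcr1-1 line differed from the wild type by 0.35 (SE 0.16) and the hcr1-2 line by 0.18 (SE 0.16), with limma adjusted p values of 1.00 and 0.938. OCT1 and OCT5 thus also had a fitted value above Col-0 in each line, and neither passed. Of all 16746 rows, 8530 were above Col-0 in hcr1-1 and 8880 in hcr1-2. OCT4 was chosen for standing far above Col-0, so its place as the furthest was set in advance. Mean signals of OCT1 (1.58) and OCT5 (2.37) were below the median of 3.51 over all rows. No test of the difference between these genes was made.

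Other genes of potassium and cation transport gave no common direction. Without KUP12 and OCT4, 9 of 92 genes on lists of channels, exchangers, carriers and regulators were measured. In hcr1-2 against Col-0, 5 of them had a fitted value above and 4 below, with a median log2 difference of 0.18 beside 0.01 over all rows. In hcr1-1 the same count was 5 above and 4 below, with a median of 0.01 beside 0.00 over all rows. By limma 0 of the 9 passed over all rows in either line, with 3 at an unadjusted p under 0.05 in hcr1-2, beside 5.4% of all rows, and 0 in hcr1-1, beside 3.24%. The 3 were OCT5, CHX19 and CHX20. No Shaker or pore channel of potassium (16 listed), no cyclic nucleotide gated channel (20 listed) and no ammonium or polyamine carrier (10 listed) was on a row with 1 gene.

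The CHX cation/proton exchangers, which move potassium or sodium ions against protons across inner and outer membranes, were the best covered relatives in function. Of these 9 were measured, 3 of them added once it was known which genes had rows. In each line 2 stood above and 7 below Col-0, with median log2 differences of -0.05 in hcr1-1 and -0.06 in hcr1-2. Arrays of hcr1-2 lay wholly below Col-0 in 1 and above in 1, beside 4.34% and 6.1% of all rows. Those of hcr1-1 did so in 2 and 0, beside 4.02% and 5.18%. With hcr1-2 replicate 1 left out, the hcr1-2 counts were 5 below and 1 above, beside 10.8% and 13.3%. The 5 below were dim rows, with mean signals from 1.33 (CHX6A) to 3.08 (CHX21), under the median of 3.51 over all rows. The 4 exchangers described next had the smallest unadjusted limma p of the first 6 in the average of both lines against Col-0. They were thus picked from these arrays and do not stand for the family. CHX19 (AT3G17630) stood at 0.28 (SE 0.11) in hcr1-2 and 0.11 (SE 0.11) in hcr1-1. CHX20 (AT3G53720), known from the osmotic control of guard cells, stood at -0.33 (SE 0.12) and -0.05 (SE 0.12). The hcr1-2 arrays of CHX19 lay wholly above and those of CHX20 wholly below the Col-0 arrays, and both had a limma adjusted p of 0.903. CHX16 (AT1G64170) stood at 0.33 (SE 0.23) in hcr1-2 and 0.01 (SE 0.23) in hcr1-1, with overlapping arrays in both. CHX21 (AT2G31910) had 3.23, 3.05 and 3.74 in the wild type, 2.85, 2.94 and 3.01 in hcr1-1 and 3.96, 2.59 and 2.39 in hcr1-2. Its hcr1-1 arrays were wholly below the wild type, at -0.41 (SE 0.33), and hcr1-2 replicate 1 was its highest array of all. The CHX21 difference in hcr1-2 was -0.36 (SE 0.33) with that array and -0.85 (SE 0.19) without it, then wholly below Col-0, and limma gave adjusted p values of 0.940 and 0.701. ILK1 (AT2G43850), a Raf-like kinase that promotes potassium uptake through HAK5, stood at 0.18 (SE 0.13) in the hcr1-2 line and 0.03 (SE 0.13) in the other, with overlapping arrays. With hcr1-2 replicate 1 left out, the hcr1-2 arrays of ILK1 lay wholly above Col-0, at 0.24 (SE 0.14), as in 13.3% of all rows.

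When 3 further CHX genes, 10 glutamate receptor-like channels and 5 metal carriers were added, once it was known which genes had rows, 27 genes could be read beside the pair. Their median log2 difference was -0.02 in hcr1-1 and 0.01 in hcr1-2, with 13 above and 14 below Col-0 in hcr1-1 and 15 above and 12 below in hcr1-2. Leaving out hcr1-2 replicate 1 turned the latter to 13 above and 14 below, with a median of -0.01. In hcr1-1 against Col-0, 3 of the 27 had all mutant arrays below all Col-0 arrays and 0 had them above, beside 4.02% and 5.18% of all rows. In hcr1-2 it was 1 below and 2 above, beside 4.34% and 6.1%. The hcr1-2 counts were thus near the share over all rows, while the 3 below in hcr1-1 were above it. Without hcr1-2 replicate 1 the hcr1-2 counts were 6 below and 3 above, or 22.2% and 11.1% of the 27. All 6 below had a mean signal under the median of 3.51 over all rows. Mean signals of the 27 ran from 1.03 (MTPA1) to 6.99 (ILK1), so the counts and medians mix dim and bright rows. Over all rows with 1 array fewer the shares were 10.8% and 13.3%. At an unadjusted p under 0.05 there were 3 of the 27 without that array, beside 6.75% of rows. The log2 differences of the 27 in hcr1-2 ran from -0.36 (CHX21) to 0.41 (GLR2.9). KUP12 and OCT4 stood further from Col-0, but they had been picked by their values in these arrays and the 27 had not. With hcr1-2 replicate 1 left out, the range was -0.85 (CHX21) to 0.46 (OCT5), and GLR2.9 stood at 0.02. CHX21 was then further from Col-0 than KUP12 or OCT4. In hcr1-1 the range was -0.41 to 0.35, which holds the KUP12 value but not that of OCT4.

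**Figure D2:**
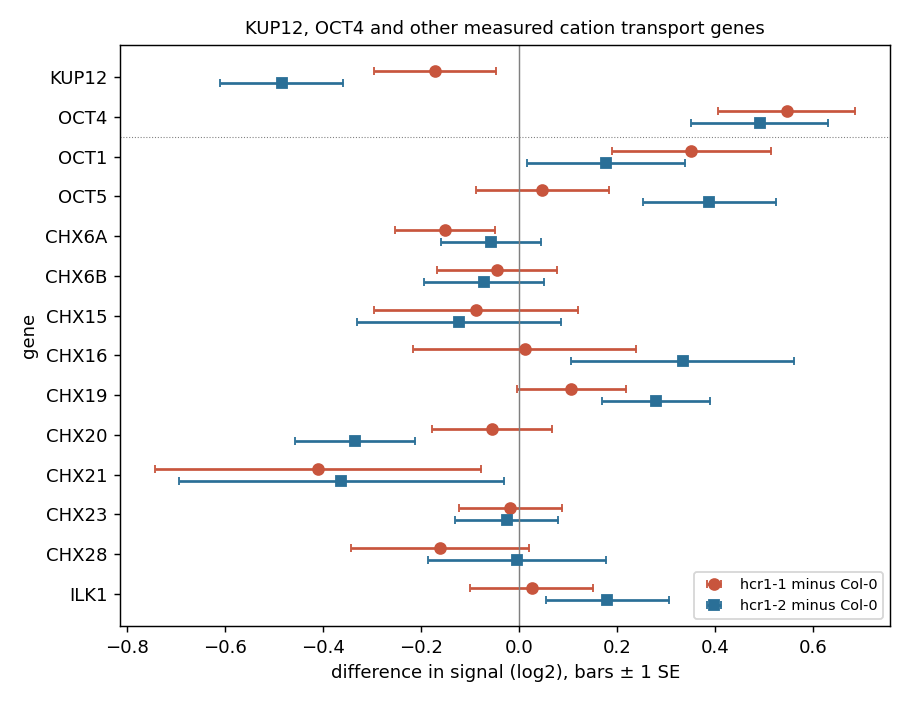
Difference in log2 signal from Col-0 (x axis, bars ± 1 SE from the limma fit over 9 arrays) for hcr1-1 (circles) and hcr1-2 (squares) in KUP12, OCT4 and the other measured OCT, CHX and potassium regulator genes (y axis). OCT4 stands at 0.55 and 0.49 and KUP12 at -0.17 and -0.48, while the others lie on both sides of 0.

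The genes next to the pair on the chromosomes were read as well. No gene model of TAIR10.1 overlapped that of KUP12, on chromosome 1, or that of OCT4, on chromosome 3. The nearest tested genes beside KUP12 were AT1G60130 at -0.33 (SE 0.24) and PUB19 (AT1G60190), a U-box ubiquitin ligase, at -0.13 (SE 0.17) in hcr1-2 against Col-0, both with overlapping arrays. Beside OCT4 they were AT3G20650 at 0.22 (SE 0.14) and AT3G20690 at 0.09 (SE 0.16) in the same comparison, again with overlapping arrays. AT3G20650 stood at 0.35 (SE 0.12), wholly above Col-0, and AT3G20690 at 0.16 (SE 0.18) when hcr1-2 replicate 1 was left out. In that setting 13.3% of all rows lay wholly above Col-0. Within 20 gene models on either side, 15 tested genes around KUP12 had a median of -0.07 in hcr1-2 and 17 around OCT4 had a median of 0.01, beside -0.48 for KUP12 and 0.49 for OCT4 themselves. These medians were -0.14 and 0.02 without hcr1-2 replicate 1. In hcr1-1 against Col-0 they were -0.05 and 0.04, beside -0.17 for KUP12 and 0.55 for OCT4. The nearest genes there stood at -0.12 (AT1G60130), -0.11 (PUB19), 0.09 (AT3G20650) and -0.02 (AT3G20690), all with overlapping arrays. PUB19 and AT3G20690 were dim, with mean signals of 1.61 and 1.41. OCT4 and HCR1 lie on the same chromosome with 599 gene models between them.

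The expression pattern over the arrays was then set against every other gene on a row at or above the median signal, 8279 in all. The 5 genes most like KUP12 by Pearson r over the 9 arrays were AT3G12650 at 0.91, AT3G18295 at 0.89, AT1G60360 at 0.88, AT4G09560 at 0.87 and CYN (AT3G23490), the cyanate-degrading enzyme cyanase, at 0.87. Of these AT3G18295 had the widest shift in hcr1-2, with a log2 difference of -0.39 (SE 0.15) against Col-0, and AT3G12650 moved by -0.15 (SE 0.10). AT1G60360 lies on the same chromosome as KUP12 with 18 gene models between them. The peak in hcr1-1 replicate 2 was shared by AT3G18295, at 5.53 beside 5.05 and 5.29 in the other hcr1-1 arrays.

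The 5 genes most like OCT4 were AT4G13070 at 0.91, AT5G67550 at 0.91, AT4G14370 at 0.90, AT3G06070 at 0.90 and AT1G76185 at 0.88. Their log2 differences from Col-0 were 0.23 to 0.37 in hcr1-1 and 0.22 to 0.28 in hcr1-2, each smaller than that of OCT4. AT4G13070 was 3.22 in Col-0 replicate 1 and 3.86 in hcr1-1 replicate 2, its lowest and highest arrays, which were also the lowest and highest for OCT4. Only 1 of the 8279 rows had an r above 0.9 with KUP12, and 2 had one with OCT4. These r values describe 9 points that share genotype, pool and array, and the genes named were picked as the highest of 8279.

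**Figure D3:**
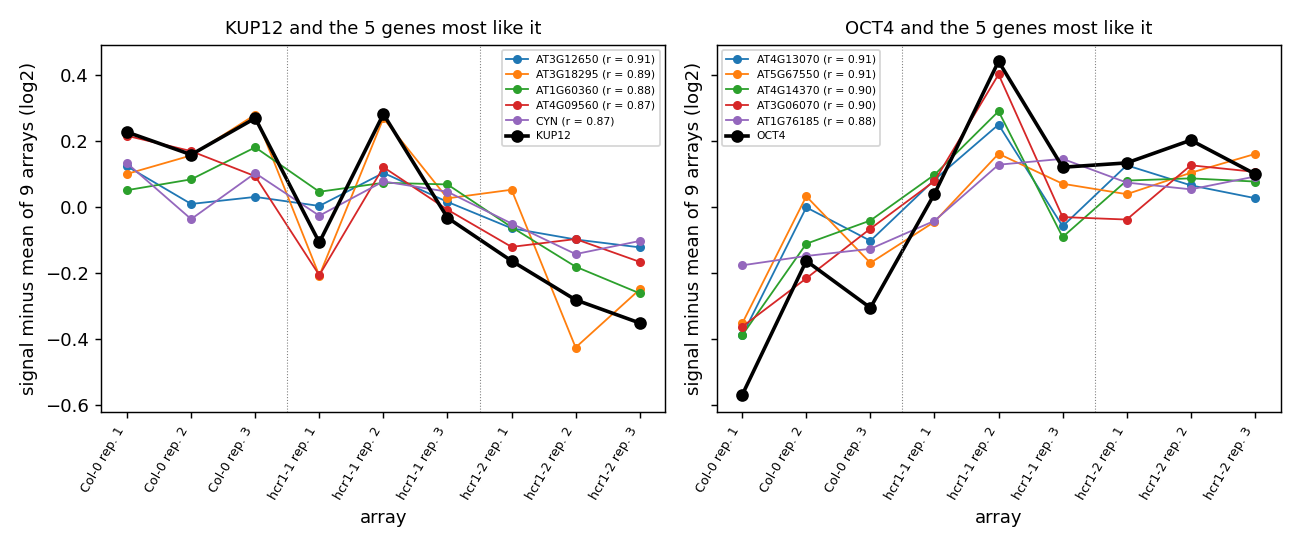
Signal on each array minus the mean of the 9 arrays (log2, y axis) for KUP12 (left) and OCT4 (right) in black and for the 5 genes with the highest Pearson r with each in colour, with dotted lines between genotypes. The KUP12 group peaks in hcr1-1 replicate 2 within its genotype and has its lowest genotype means in hcr1-2. Single arrays depart from this, as AT3G18295 is above its mean in hcr1-2 replicate 1 and AT4G09560 is lowest in hcr1-1 replicate 1. The OCT4 group is lowest in Col-0 replicate 1.

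Deviations of each array from the mean of its own genotype do not use the differences by which the pair was chosen, so relations within genotypes could be tested. KUP12 and OCT4, opposite in their genotype differences, had a positive relation within genotypes. Their deviations had a Pearson r of 0.56 and a Spearman rho of 0.50 over the 9 arrays, with exact two-sided permutation p values of 0.255 and 0.273, from 216 arrangements within genotypes. With hcr1-1 replicate 2, the array highest in both genes, left out, the r was -0.12. With Col-0 replicate 1 and hcr1-1 replicate 2, the 2 arrays farthest from the median of the OCT4 deviations, both left out and the rest centred again, it was -0.14. The relation did not pass, and its sign rests on hcr1-1 replicate 2.

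The core hypoxia genes, which plants switch on when oxygen runs short, varied widely between pools. The list was put together from general knowledge of the literature and was not taken from a deposited source. Of 51 listed, 25 were measured, and their mean relative to Col-0 was 0.22, -0.59 and 0.37 for the wild type pools. It was -0.06, -1.23 and 0.03 for hcr1-1 pools and -1.19, -1.07 and -0.50 for hcr1-2 pools. OCT4 gave the closest relation with that mean, and it did not pass. Within genotypes its deviations had a Pearson r of -0.80 and a Spearman rho of -0.65 with the hypoxia mean, with exact two-sided permutation p values of 0.0556 and 0.162, or 0.167 and 0.273 adjusted over the 3 relations computed. Without Col-0 replicate 2 and hcr1-1 replicate 2, the arrays with the lowest hypoxia deviations, and with the rest centred again, the r was -0.02, so the relation rests on those arrays. For KUP12 the r was -0.65 and rho -0.60, with exact permutation p values of 0.194 and 0.222, or 0.255 and 0.273 adjusted, and the r without the same arrays was -0.69. Without hcr1-1 replicate 2 alone it was -0.01, and without Col-0 replicate 2 alone -0.93, so single arrays set its size.

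Because the hypoxia mean was lowest in hcr1-2, the differences were computed again in a fit over all rows with that mean as a covariate, chosen after the data were seen. OCT4 then stood at 0.44 in hcr1-1 and 0.26 in hcr1-2 above Col-0, against 0.55 and 0.49 without it. KUP12 stood at -0.24 in hcr1-1 and -0.63 in hcr1-2, against -0.17 and -0.48. Both genes kept their direction, the OCT4 difference in hcr1-2 became smaller and the KUP12 difference became larger. The hypoxia mean itself differed between genotypes, so this fit cannot separate it from genotype. Its part in the differences was not tested. Of the shoot markers 2 of 14 were measured, and their mean ranged from 4.44 to 4.67 in Col-0, 4.36 to 4.56 in hcr1-1 and 4.49 to 4.65 in hcr1-2. The mean of the 3 root markers ranged from 6.17 to 6.54 in Col-0, 6.31 to 6.46 in hcr1-1 and 6.40 to 6.63 in hcr1-2. PYK10, at 10.7, was by far the brightest of these 3. The part of either marker set in the differences was not tested.

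**Figure D4:**
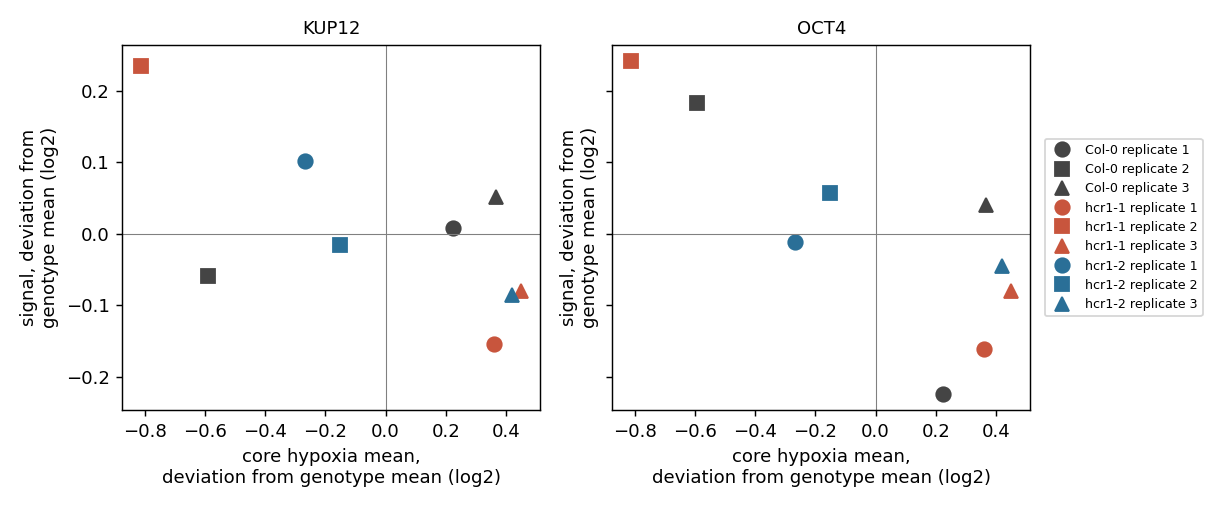
Deviation of KUP12 (left) and OCT4 (right) signal from the mean of its genotype (log2, y axis) against the same deviation of the mean of 25 core hypoxia genes (log2, x axis), 1 point per array, with colour for genotype and shape for replicate number. OCT4 is highest in hcr1-1 replicate 2 and Col-0 replicate 2, the arrays with the lowest hypoxia deviations, with a Pearson r of -0.80 over the 9 arrays and -0.02 once those 2 are left out and the rest centred again.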

How the data were processed

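Total RNA of root pools (100 ng per sample) was hybridised to Affymetrix Arabidopsis Gene 1.1 ST array strips. The deposited log2 values were made with Affymetrix Expression Console and RMA, per the submitters' processing notes. RMA as usually run equalises array distributions and condenses the probes of a row. Versions and build are not given in the sources used here. Array medians ran from 3.41 to 3.48. Of 38408 rows, 16746 were paired with 1 gene by the platform annotation, with names updated through a RefSeq table of TAIR10.1 used for names and neighbours only; 758 rows had several genes and 20904 were unnamed here. Scanner output and probe sequences were not used here.

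A limma 3.58.1 fit in R 4.3.3 (lmFit, contrasts, eBayes) used all 9 arrays, with two-sided tests and Benjamini-Hochberg adjustment over all rows; its code was tested on simulated data. Nothing states that the replicates came from separate cultures beyond being separate pools, so p-values measure the spread between pools. The members, lists and alternatives were chosen with earlier results of these data known. Named genes were the members, HCR1, the 5 genes most alike in pattern, the nearest tested neighbours and every measured KUP and OCT gene. Up to 4 members of each other list were named as well. From a longer first list these were the 4 with the smallest unadjusted p in the average of both lines against Col-0. Such genes were thus picked by their values in these arrays. Scan dates were not used here, so batches could not be tested.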

Additional observations from a re-analysis of the deposited data

How the results depend on the processing

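The KUP12 and OCT4 differences were recomputed with quantile normalization, median centring and each array left out in turn, and with the core hypoxia mean as a covariate, which was chosen after seeing the data. Of these 78 values 76 moved by less than the SD within genotypes. Fitting the compared groups alone or with the replicate block cannot move a difference of means in this balanced design, and these are not counted. The exceptions were hcr1-2 against Col-0 with the covariate, at -0.63 for KUP12 and 0.26 for OCT4. Under the replicate block the differences were the same (KUP12 at -0.48 and OCT4 at 0.49 in hcr1-2) and 0 rows passed. The correlation of same-numbered arrays ran from -0.19 to 0.16, within the range for differently numbered arrays. By this measure no pairing by number was seen, but pairing in single genes was not tested. OCT4 was highest in replicate 2 of each genotype. The core hypoxia mean was lowest in replicate 2 of Col-0 and hcr1-1, but in replicate 1 of hcr1-2. The permutation p values within genotypes take the numbers as unpaired. Leaving out 1 array gave -0.54 to -0.44 for KUP12 and 0.38 to 0.58 for OCT4 in hcr1-2, and -0.29 to -0.09 and 0.43 to 0.64 in hcr1-1. Rows past the threshold ranged from 0 to 1 in hcr1-1 and from 0 to 2 in the mean of both alleles when 1 array was left out, without hcr1-1 replicate 3. In hcr1-1 the count was 1 with only rows at or above the median signal and 1 with trended and robust variances. None of these rows was KUP12 or OCT4, and the cause was not tested. Left-out arrays gave -0.12 to 0.81 for the relation of KUP12 with OCT4 within genotypes, which reversed without hcr1-1 replicate 2. Without hcr1-2 replicate 1, an alternative added for the other named genes after seeing the data, the hcr1-2 difference turned from 0.12 to -0.0097 in GLR3.6 and from 0.01 to -0.17 in ZIP9. Left-out arrays gave -0.93 to -0.01 for KUP12 and -0.90 to -0.60 for OCT4 with the core hypoxia mean. RMA condenses the probes of a row, so a change in part of a transcript could not be seen, and 3 arrays a genotype limit the precision.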
